A study of Homo sapiens with 21 samples.

Results

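The comparison described here sets MM.1S cells carrying a short hairpin RNA against ARID2 beside untreated MM.1S cells. Its members were taken from the sample labels and not from any measured value, and they are 6 of the 21 mRNA libraries of the series, 3 in each group. Untreated cells were chosen as an alternative baseline because the control knockdown libraries were known to carry a stress response. MM.1S is a human cell line of multiple myeloma that came from blood, so the malignant plasma cells of 1 line stand behind every value. In the ARID2 knockdown libraries the cells had been transduced for 72 h with a lentivirus that expresses the hairpin, and they received no drug. A control knockdown (3 libraries) was also sequenced, for which neither the hairpin's target nor the time is stated in the labels. Untreated cells carried no virus. The untreated and the ARID2 knockdown cells therefore differ in the hairpin, in transduction and possibly in time in culture, and these cannot be told apart in that contrast. Lists of pathway genes are for that reason also counted against the control knockdown, which shares transduction with the ARID2 knockdown as far as the labels say. Libraries labelled Aiolos knockdown (3 libraries, also 72 h) and libraries from cells given 1 µM pomalidomide for 72 h (3 libraries) serve as a further baseline and for side-by-side values. Whether all knockdown cells carry the hairpin, and whether 1 or several hairpin sequences were used, is not given in the sources used here.

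ARID2 is the AT-rich DNA-binding subunit that, with PBRM1, BRD7 and PHF10, sets the PBAF form of the SWI/SNF chromatin remodeller apart from the BAF form. SWI/SNF complexes use ATP to slide and evict nucleosomes, and PBAF is known to bind acetylated promoters and to take part in transcription, DNA repair and chromosome segregation. In plasma cells IRF4 and MYC drive growth, XBP1 and PRDM1 drive antibody secretion, and Ikaros and Aiolos (IKZF1 and IKZF3) are the factors that pomalidomide sends for degradation through CRBN. p53 is a stress-activated transcription factor, and transcripts of its listed target genes are described below. It is known to switch on CDKN1A (p21), which holds cyclin-dependent kinases and, through them, the genes of S phase and mitosis. Whether p53 acts in these cells was not tested.

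Values are TPM, transcript levels scaled to a fixed total in each library, as the authors deposited them, and TPM keeps no sequencing depth, so the depth behind each value is unknown. Of 17691 listed genes, 12559 reached 1 TPM in at least 3 of the 21 libraries and were tested with limma on log2(TPM + 1). Fold changes below are on that log2 scale with their standard error, which understates the change of genes with low levels. A gene "passed" where the Benjamini-Hochberg adjusted p over all 12559 genes was under 0.05, and "rose" or "fell" is used only of genes that passed. Libraries of a group correlated at r = 0.994 to 0.996 over tested genes (6 pairs within groups), and libraries of different groups at 0.963 to 0.964 (9 pairs). The submitters call the replicates biological but do not say whether they were separate cultures, so p-values cover the spread among these libraries only, which may be technical. Between ARID2 knockdown and untreated cells 8540 genes passed, 68.0% of those tested, with 4020 (32.0%) higher and 4520 (36.0%) lower in the knockdown. A passed test is therefore the common outcome here, and size, direction and the second baseline carry more of the description below than the test alone. A change of at least 2-fold was met by 428 of the higher and 533 of the lower genes, and the median over all tested genes was -0.01. Against the control knockdown 33.1% of the tested genes were higher and 29.2% lower in the ARID2 knockdown. List counts near such shares do not set a list apart from all genes. Where a count of higher or lower list members below is 0, it was also 0 at an unadjusted p under 0.05 (limma).

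The targeted transcript was lower in each knockdown library. ARID2 (chromosome 12, 45729665 to 45908040, plus strand, hg38) was measured at 12.4, 12.2 and 12.1 TPM in the ARID2 knockdown libraries, 26.0, 25.4 and 25.4 TPM in the control knockdown and 32.4, 28.4 and 28.5 TPM in untreated cells. The groups did not overlap, and the log2 fold change was -1.21 ± 0.07 against untreated cells (adjusted p = 3.20e-12) and -1.01 ± 0.07 against the control knockdown (adjusted p = 8.13e-11). SCAF11, a splicing-associated factor whose gene lies next to it downstream, did not pass against either baseline (-0.12 and 0.13). SLC38A1, a glutamine transporter gene farther downstream of ARID2, beyond SCAF11, also fell, and its values are given with the amino acid transporters.

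Of the other PBAF-specific subunits, PBRM1 and PHF10 fell against untreated cells and BRD7 did not pass in that contrast. PBRM1, the bromodomain-rich subunit, stood at 34.4, 32.6 and 35.0 TPM in the ARID2 knockdown, 45.5, 45.8 and 43.4 TPM in the control knockdown and 51.7, 47.9 and 48.4 TPM in untreated cells, with no overlap between the first and either baseline (-0.52 ± 0.06 against untreated, -0.39 ± 0.06 against control). PHF10 fell against untreated cells (-0.26 ± 0.06), but its difference from the control knockdown did not pass (-0.10 ± 0.06, adjusted p = 0.158). BRD7 did not pass against untreated cells (-0.01 ± 0.06, adjusted p = 0.831) and was higher than in the control knockdown (0.18 ± 0.06). The direction of the small BRD7 difference from untreated cells changed with quantile scaling and with mitochondrial transcripts left out. Among 22 tested subunits shared with or specific to BAF, 5 rose and 12 fell against untreated cells, with a median of -0.24, and against the control knockdown 7 rose (33.1% of all tested genes were higher in that contrast) and 6 fell (29.2% of all tested genes), with a median of -0.08. SMARCD1, a core subunit present in both forms, had the largest fall of the list, at 63.2, 60.8 and 64.3 TPM in the ARID2 knockdown, 115, 115 and 118 TPM in the control knockdown and 131, 129.8 and 132 TPM in untreated cells (-1.05 ± 0.03 and -0.88 ± 0.03). DPF2, a BAF-specific reader of histone marks, rose against both baselines (0.50 ± 0.04 and 0.70 ± 0.04).

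**Figure D1:**
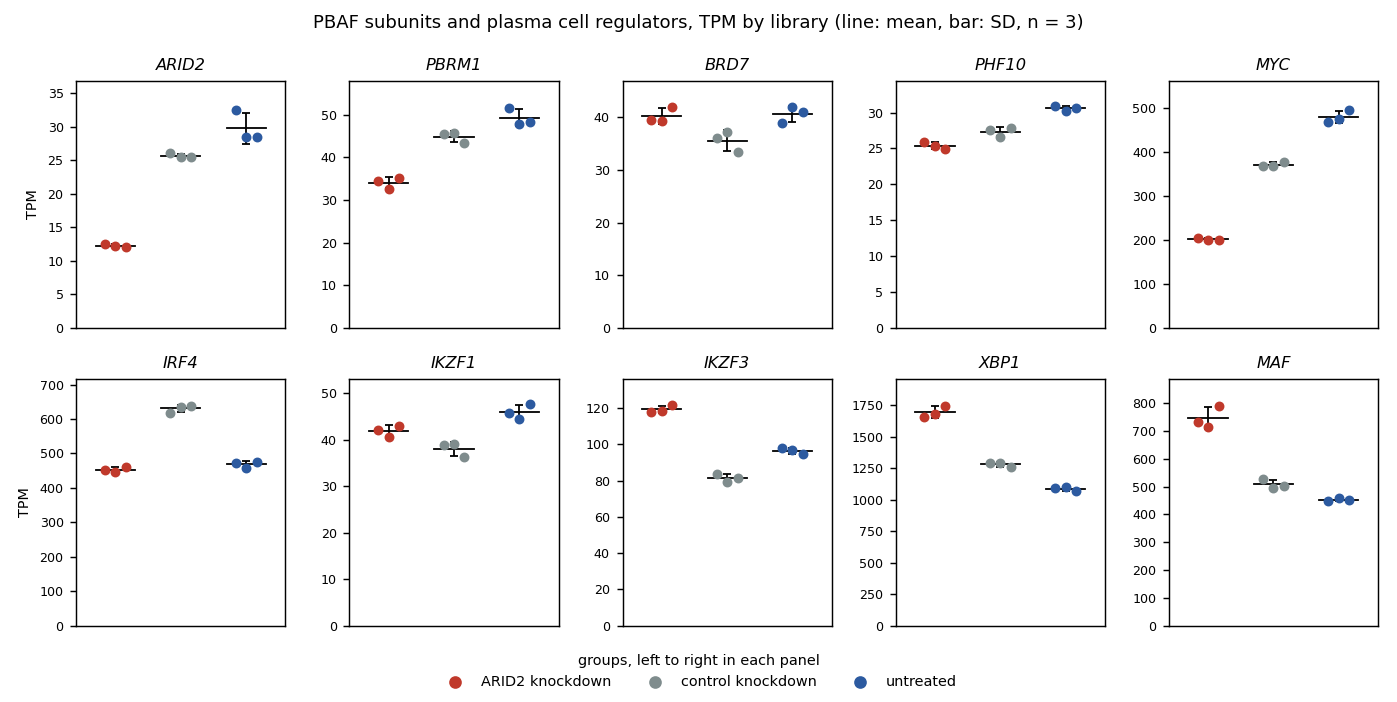
TPM of PBAF subunits and plasma cell regulators in each library (points), with the group mean (line) and SD (bar), n = 3 per group; ARID2 knockdown, control knockdown and untreated cells run left to right on linear axes that start at 0. ARID2 lies at 12.1 to 12.4 TPM in its knockdown and at 25.4 to 32.4 TPM in the baselines, MYC is lower in the knockdown, XBP1 and MAF are higher, and IRF4 is near untreated cells but below the control knockdown.

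Most of the large differences from untreated cells were also found against the control knockdown. Of the 428 genes at least 2-fold higher than in untreated cells, 385 (90.0%) also rose against the control knockdown and 9 fell, and of the 533 genes at least 2-fold lower, 512 (96.1%) also fell and 0 rose (limma; also 0 at an unadjusted p under 0.05; the other 21 did not pass). Over all tested genes, 3012 (24.0%) were higher and 3027 (24.1%) lower against both baselines, while 145 (1.15%) were higher than in untreated cells but lower than in the control knockdown, and 192 (1.53%) were the reverse. The control knockdown itself differed from untreated cells at 2169 higher (17.3%) and 3570 lower genes (28.4%), but only 88 and 21 of these reached 2-fold. Many of the large differences were present there in part. Of the 428 genes, 253 were also higher in the control knockdown than in untreated cells, and of the 533 genes, 286 were also lower. The contrasts against untreated cells share the 3 untreated libraries and the ARID2 contrasts share the 3 ARID2 libraries, so the counts are not independent of each other.

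The p53 target list moved furthest upward of the lists described. Of 24 tested members, 22 rose and 2 fell against untreated cells (32.0% and 36.0% of all tested genes did so), and the median was 1.49, beside -0.01 for all genes. The same counts held against the control knockdown, 22 higher and 2 lower, with a median of 1.06. In the control knockdown against untreated cells 11 members rose and 1 fell, with a median of 0.14. CDKN2A, CDKN2B and CDKN2C, inhibitors of CDK4 and CDK6, were under the filter on low values and were not tested.

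CDKN1A, the p21 inhibitor of cyclin-dependent kinases, was measured at 587, 595 and 573 TPM in the ARID2 knockdown, 65.5, 67.1 and 63.3 TPM in the control knockdown and 25.5, 21.7 and 22.1 TPM in untreated cells. Its log2 fold change was 4.61 ± 0.06 against untreated cells (adjusted p = 1.95e-21) and 3.14 ± 0.06 against the control knockdown (adjusted p = 6.61e-19). The control knockdown lay between the other groups and nearer to untreated cells, which it exceeded by 1.46 ± 0.06 on the log2 scale. No libraries of different groups overlapped. PHLDA3, a p53 target that restrains AKT at the membrane, read 153, 155 and 159 TPM in the ARID2 knockdown, 11.99, 13.4 and 12.8 TPM in the control knockdown and 6.13, 5.52 and 4.83 TPM in untreated cells (4.59 ± 0.09 against untreated). FDXR, the mitochondrial ferredoxin reductase, read 128, 128 and 116 TPM in the ARID2 knockdown, 12.2, 11.9 and 12.01 TPM in the control knockdown and 7.38, 8.76 and 9.86 TPM in untreated cells (3.70 ± 0.10). For PHLDA3 and FDXR both baselines were low and every ARID2 knockdown library was many times above them.

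Among the other members that rose were genes of growth arrest and repair. GADD45A, a stress-induced inhibitor of cell cycle progression, stood at 222, 219 and 222 TPM in the ARID2 knockdown, 62.9, 62.6 and 62.4 TPM in the control knockdown and 63.6, 60.2 and 63.3 TPM in untreated cells, the baselines being level with each other (0.0063). XPC, a damage sensor of nucleotide excision repair, averaged 123 ± 2.57 TPM in the ARID2 knockdown, 49.2 ± 1.18 TPM in the control knockdown and 43.7 ± 2.10 TPM in untreated cells (SD, n = 3 each). DDB2, which works beside XPC on ultraviolet damage, averaged 99.5 ± 4.41 TPM in the ARID2 knockdown, 28.7 ± 0.248 TPM in the control knockdown and 20.1 ± 2.06 TPM in untreated cells. In each of these the ARID2 knockdown libraries were all above every baseline library.

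Genes of cell death were also among the members that rose. BBC3 (PUMA), a BH3-only activator of apoptosis, stood at 65.3, 64.4 and 67.2 TPM in the ARID2 knockdown, 12.8, 14.5 and 15.4 TPM in the control knockdown and 10.2, 10.9 and 10.6 TPM in untreated cells (2.53 ± 0.08 and 2.13 ± 0.08). The death receptor FAS stood at 66.3, 70.8 and 69.1 TPM in the ARID2 knockdown, 17.4, 18.6 and 18.4 TPM in the control knockdown and 17.7, 15.3 and 16.8 TPM in untreated cells (1.99 ± 0.07 and 1.87 ± 0.07). BAX, the pore-forming effector of mitochondrial apoptosis, rose too (1.13 ± 0.07 and 0.84 ± 0.07). Of the 16 tested BCL2 family genes 9 rose and 2 fell against untreated cells, with a median of 0.24, and against the control knockdown 8 rose and 3 fell (median 0.24). The pro-survival gene BCL2L1 rose slightly (0.39 ± 0.03), the BH3 gene BID fell (-0.77 ± 0.04), and neither MCL1 (0.07) nor BCL2 (0.07) passed. PMAIP1 (NOXA) was higher than in untreated cells (1.05 ± 0.10), but did not pass against the control knockdown (-0.12 ± 0.10, adjusted p = 0.309).

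Among the members that rose, MDM2 and PPM1D feed back on p53. MDM2, the ubiquitin ligase that degrades p53, stood at 185, 189.7 and 191 TPM in the ARID2 knockdown, 112, 113 and 104 TPM in the control knockdown and 105, 102 and 104 TPM in untreated cells (0.85 ± 0.05). PPM1D, the phosphatase that ends p53 signalling, rose by a like amount (0.81 ± 0.07 against untreated, 1.03 ± 0.07 against control). SESN2, which belongs to both the p53 and the amino acid stress lists, stood at 107, 111 and 103 TPM in the ARID2 knockdown, 86.7, 90.1 and 92.1 TPM in the control knockdown and 19.1, 20.6 and 19.4 TPM in untreated cells, so most of its difference from untreated cells was also present in the control knockdown. The members that fell were RRM2B, a ribonucleotide reductase subunit (-0.21 ± 0.09), and CDKN2D, another CDK inhibitor (-0.29 ± 0.11). Protein levels and p53 activity were not measured in these libraries.

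**Figure D2:**
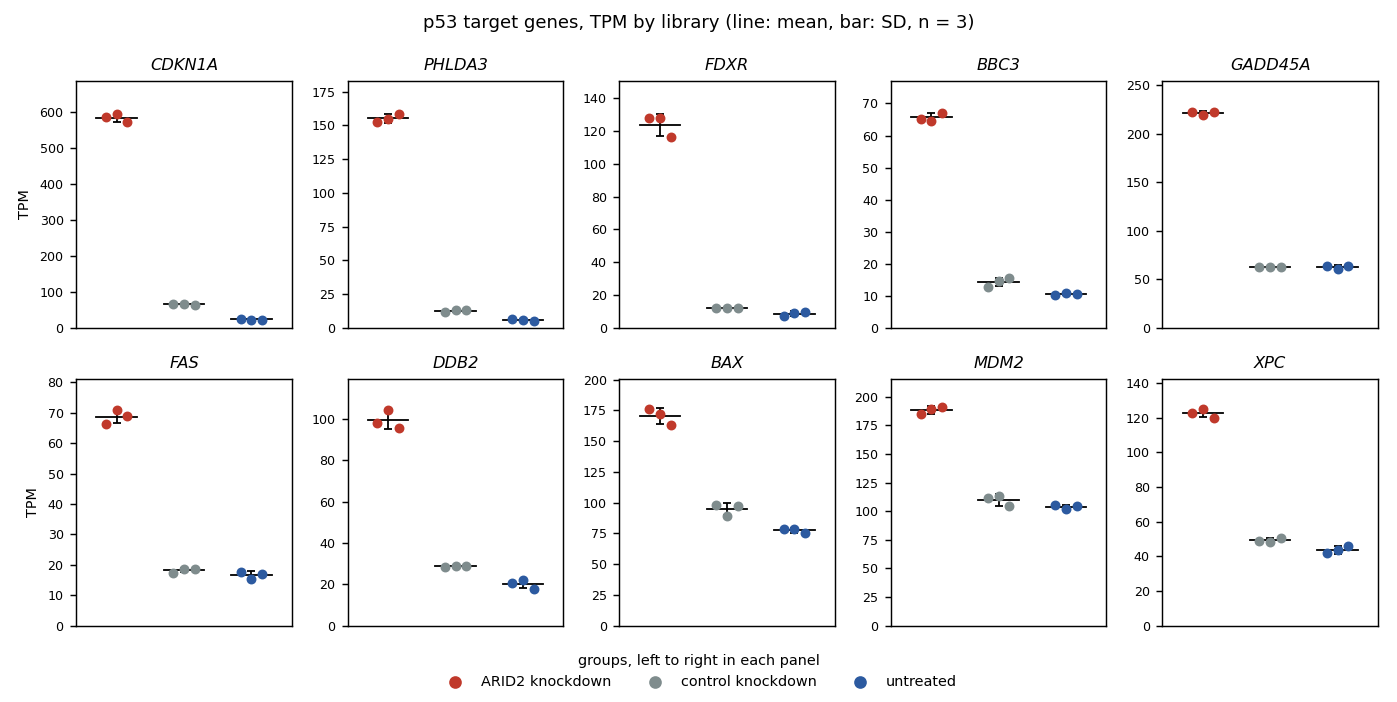
TPM of 10 p53 target genes in each library (points), with the group mean (line) and SD (bar), n = 3 per group; ARID2 knockdown, control knockdown and untreated cells run left to right on linear axes that start at 0. In every panel the 3 ARID2 knockdown libraries lie above all libraries of both baselines; for GADD45A and FAS the baselines are nearly level with each other.

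Genes of mitosis moved the other way. All 55 tested members fell against untreated cells, 46 of them at least 2-fold, with a median of -1.31 and a range of -2.28 to -0.65, and all 55 fell against the control knockdown, with a median of -1.28. Against these counts, 36.0% and 29.2% of all tested genes fell in the same contrasts. In the control knockdown against untreated cells 7 members rose and 17 fell, with a median of -0.07. MAD2L1, which holds the spindle checkpoint until chromosomes attach, stood at 14.1, 14.0 and 15.0 TPM in the ARID2 knockdown, 75.2, 76.1 and 76.5 TPM in the control knockdown and 74.4, 76.1 and 69.9 TPM in untreated cells (-2.28 ± 0.06, adjusted p = 3.59e-17). The mitotic kinase PLK1 stood at 33.6, 34.1 and 35.8 TPM in the ARID2 knockdown, 109.6, 104 and 104 TPM in the control knockdown and 116, 113 and 119 TPM in untreated cells (-1.72 ± 0.05). The baselines were close to each other and every ARID2 knockdown library was far below them for both genes. AURKA, the spindle pole kinase, fell similarly (-2.19 ± 0.07 and -2.40 ± 0.07), as did GTSE1, a microtubule-binding protein of G2 that also restrains p53 (-1.59 ± 0.05 and -1.45 ± 0.05), and MKI67, the proliferation antigen (-1.68 ± 0.06 and -1.23 ± 0.06). The smallest fall was that of BUB3, a checkpoint protein (-0.65 ± 0.04). In bulk RNA, fewer cells in a phase and less RNA per cell cannot be told apart.

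Many promoters of mitosis genes hold the cell cycle homology region (CHR), TTTGAA, a short element near the start site through which the DREAM complex and B-MYB act. RefSeq promoters (GRCh38.p14, 250 bases before to 50 after each gene's start) were matched by symbol for 9755 tested genes and searched on both strands. TTTGAA was present in 34 of the 46 tested mitosis genes with a promoter (73.9%), in 1 of 42 S phase genes and in 14.0% of all tested genes with a promoter. The motif was added to the search after the data were seen, and a match describes letters only. The promoters of the mitosis genes with the smallest p that the table holds are shown because they let the element be seen beside the start site, with TTTGAA, or its reverse complement TTCAAA, in capitals. The motif begins at base 24 after the start in MAD2L1, and 29 bases before it in PLK1 and 26 bases before it in GTSE1. They lie at chr4:120066799-120067098 on the minus strand (MAD2L1), chr16:23678639-23678938 on the plus strand (PLK1) and chr22:46296620-46296919 on the plus strand (GTSE1).
MAD2L1: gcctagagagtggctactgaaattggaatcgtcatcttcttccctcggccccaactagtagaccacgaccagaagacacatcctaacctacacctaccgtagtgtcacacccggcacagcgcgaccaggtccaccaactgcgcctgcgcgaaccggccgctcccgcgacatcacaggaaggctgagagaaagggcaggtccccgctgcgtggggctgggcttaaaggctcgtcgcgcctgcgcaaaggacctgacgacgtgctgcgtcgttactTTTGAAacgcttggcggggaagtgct
PLK1: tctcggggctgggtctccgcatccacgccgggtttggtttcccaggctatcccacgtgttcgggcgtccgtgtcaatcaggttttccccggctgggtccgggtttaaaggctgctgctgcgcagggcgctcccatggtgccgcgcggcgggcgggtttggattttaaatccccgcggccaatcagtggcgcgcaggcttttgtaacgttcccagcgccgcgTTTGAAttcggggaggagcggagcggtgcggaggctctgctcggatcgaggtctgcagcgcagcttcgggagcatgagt
GTSE1: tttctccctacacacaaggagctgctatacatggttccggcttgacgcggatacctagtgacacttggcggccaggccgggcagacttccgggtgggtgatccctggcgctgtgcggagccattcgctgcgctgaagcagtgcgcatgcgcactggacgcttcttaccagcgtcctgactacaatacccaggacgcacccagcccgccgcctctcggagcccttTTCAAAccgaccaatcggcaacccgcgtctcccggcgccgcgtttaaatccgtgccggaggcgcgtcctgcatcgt

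S phase genes also fell, with a smaller median than the mitosis list. Of 50 tested members 0 rose and 47 fell against untreated cells (the other 3 did not pass), with a median of -0.76, and against the control knockdown 1 rose and 43 fell, with a median of -0.60. The control knockdown against untreated cells gave 1 higher and 31 lower, with a median of -0.21. FEN1, the flap nuclease of lagging-strand synthesis, stood at 195, 193 and 189 TPM in the ARID2 knockdown, 343, 365 and 348 TPM in the control knockdown and 416, 412 and 417 TPM in untreated cells (-1.11 ± 0.04). MCM6, a subunit of the replicative helicase, stood at 124, 129 and 125 TPM in the ARID2 knockdown, 230.4, 240.5 and 241 TPM in the control knockdown and 234, 243 and 239.5 TPM in untreated cells (-0.92 ± 0.03), so that the control was close to untreated cells. RRM2, the cell-cycle-regulated ribonucleotide reductase subunit, was lower in the control knockdown too: 146, 151 and 150.4 TPM in the ARID2 knockdown, 257, 263 and 256 TPM in the control knockdown and 433, 433 and 431 TPM in untreated cells. E2F2, an activator of S phase genes, fell against both baselines (-1.21 ± 0.05 and -0.95 ± 0.05). PCNA, the sliding clamp and also a p53 target, did not pass against untreated cells (-0.00034 ± 0.04) and was higher than in the control knockdown (0.30 ± 0.04).

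The E2F motif TTTNNCGC, where N is any base, was present in 25 of 42 S phase promoters (59.5%), in 6 of 46 mitosis promoters and in 13.0% of those of all tested genes. The promoter of FEN1, the S phase gene with the smallest p, holds 0 matches. MCM6, next by p, holds 4 matches, which on the opposite strands overlap in pairs, and its promoter (chr2:135876394-135876693, minus strand) is shown, with both pairs in capitals, to let the motif be seen.
MCM6: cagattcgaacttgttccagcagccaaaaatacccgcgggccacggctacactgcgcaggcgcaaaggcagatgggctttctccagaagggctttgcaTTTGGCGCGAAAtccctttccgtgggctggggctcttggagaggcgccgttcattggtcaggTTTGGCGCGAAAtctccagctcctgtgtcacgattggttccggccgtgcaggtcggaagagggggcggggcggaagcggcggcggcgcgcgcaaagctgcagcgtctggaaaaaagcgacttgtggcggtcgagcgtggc

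MYC and most of its listed targets fell against untreated cells and against the control knockdown. MYC stood at 205, 199 and 200.3 TPM in the ARID2 knockdown, 368, 367 and 377 TPM in the control knockdown and 468, 475 and 495 TPM in untreated cells, with no overlap between any of the groups (-1.25 ± 0.03 against untreated, adjusted p = 2.04e-17; -0.88 ± 0.03 against control, adjusted p = 5.38e-15). Of 40 tested MYC targets 0 rose and 39 fell against untreated cells, with a median of -0.56. Against the control knockdown 4 rose and 27 fell, with a median of -0.27, and the control knockdown itself was lower than untreated cells at 38 members (higher at 0), with a median of -0.37. Against the Aiolos-labelled libraries 24 targets rose and 5 fell (median 0.20; 30.2% and 35.7% of all tested genes did so), although MYC was lower (-0.70 ± 0.03). Over untreated cells, the Aiolos-labelled libraries had a target median of -0.80 and a MYC difference of -0.55 ± 0.03. SRM, spermidine synthase, stood at 139.6, 140.3 and 134 TPM in the ARID2 knockdown, 283, 260.0 and 286 TPM in the control knockdown and 366, 362 and 349 TPM in untreated cells (-1.38 ± 0.05). The nucleolar proteins NCL (-0.82 ± 0.03 and -0.39 ± 0.03) and NOLC1 (-0.80 ± 0.03 and -0.46 ± 0.03) fell against both baselines. CAD, of pyrimidine synthesis, was the member that did not pass against untreated cells (-0.08). The MYC E-box CACGTG was present in 20 of 35 promoters of the list (57.1%), against 12.8% of those of all tested genes.

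More glycolysis genes fell than rose. Of 30 tested genes 6 rose and 18 fell against untreated cells, with a median of -0.26, and against the control knockdown 8 rose and 13 fell (median -0.08). HK2, the inducible hexokinase, stood at 7.51, 7.61 and 7.37 TPM in the ARID2 knockdown, 36.0, 38.7 and 38.8 TPM in the control knockdown and 48.7, 45.3 and 48.2 TPM in untreated cells (-2.51 ± 0.06). PGAM1, phosphoglycerate mutase, fell against both baselines (-1.71 ± 0.03 and -1.39 ± 0.03), and LDHA, lactate dehydrogenase, fell against untreated cells and against the control knockdown (-1.04 ± 0.04 and -0.45 ± 0.04). GAPDH did not pass against untreated cells (-0.03), and SLC2A3, a glucose transporter, rose (1.19 ± 0.06).

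Sterol and fatty acid synthesis fell as a group against both baselines. Of 33 tested genes of the SREBP programme, by which cells make cholesterol and unsaturated fatty acids, 3 rose and 28 fell against untreated cells, with a median of -0.80. Against the control knockdown 1 rose and 29 fell, with a median of -0.95. The control knockdown stood on the other side of untreated cells, with 19 members higher, 5 lower and a median of 0.19. SCD, the desaturase that makes oleate, stood at 102, 101 and 106 TPM in the ARID2 knockdown, 805, 818 and 807 TPM in the control knockdown and 621, 606 and 634 TPM in untreated cells (-2.58 ± 0.04 and -2.97 ± 0.04). INSIG1, the sterol-sensing retention protein, stood at 119.8, 117 and 133 TPM in the ARID2 knockdown, 605, 586 and 573 TPM in the control knockdown and 476, 469 and 469.8 TPM in untreated cells. For both genes the ARID2 knockdown libraries were well below both baselines, and the control libraries were above the untreated ones. Other genes of the pathway fell with them: FDFT1, squalene synthase (-1.32 ± 0.04 against untreated), and the regulator SREBF1 (-1.25 ± 0.06). The members that rose against untreated cells were PMVK (0.46 ± 0.06), TM7SF2 (0.78 ± 0.09) and SC5D (0.36 ± 0.08). The SREBP motif TCACNCCA was found in 3 of 27 promoters of the list and in 4.71% of those of all tested genes.

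**Figure D3:**
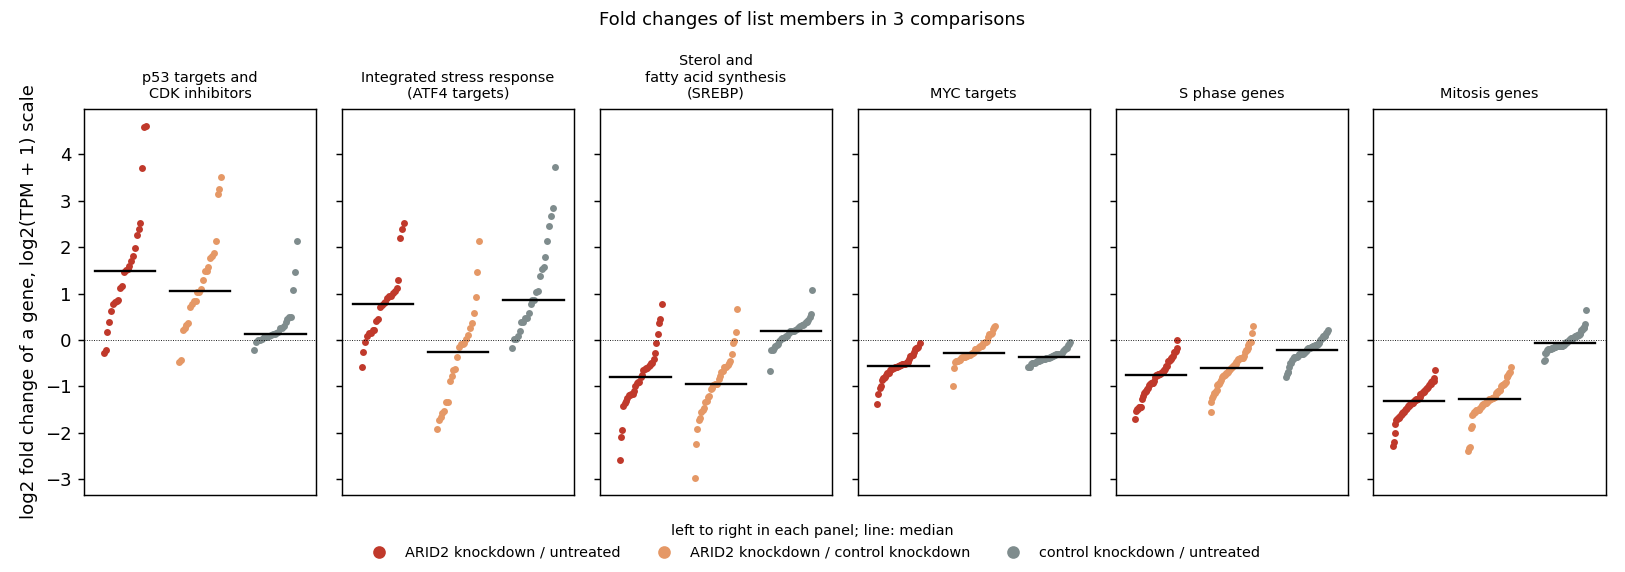
Log2 fold changes (log2(TPM + 1) scale) of every tested member of 6 gene lists in 3 comparisons; each point is a gene, points are sorted within a comparison, and the black line is the median. p53 targets are shifted up and mitosis, S phase and sterol genes down in both ARID2 comparisons, while the medians of the stress list are 0.78, -0.26 and 0.86 across ARID2 knockdown over untreated, ARID2 knockdown over control knockdown, and control knockdown over untreated.

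The integrated stress response differed in direction between the baselines. This programme, led by the transcription factor ATF4, is switched on by amino acid shortage or protein folding stress. A stress response in the control knockdown was known and led to the untreated baseline, so the control values below are no independent finding. Of 24 tested members 19 rose and 2 fell against untreated cells, with a median of 0.78. Against the control knockdown 6 rose and 13 fell, with a median of -0.26, and the control knockdown over untreated cells gave 20 higher and 0 lower, with a median of 0.86. CHAC1, which breaks down glutathione, stood at 29.4, 26.6 and 29.1 TPM in the ARID2 knockdown, 78.1, 83.0 and 89.8 TPM in the control knockdown and 5.49, 5.26 and 5.33 TPM in untreated cells. It was thus higher than in untreated cells (2.21 ± 0.09) and lower than in the control knockdown (-1.53 ± 0.09), with no overlap among the groups. ATF4 itself was lower than in both baselines (-0.27 ± 0.03 and -1.33 ± 0.03), and DDIT3 (CHOP) was higher than in untreated cells and lower than in the control knockdown (1.00 ± 0.10 and -0.37 ± 0.10). BBC3, SESN2, PPP1R15A, SQSTM1, GDF15 and ULK1 rose against both baselines. BBC3 and SESN2 were described above with the p53 targets, and which of these genes depend on p53 was not tested. The ATF4 element TGATGNAA was found in 4 of 22 promoters of the list, against 2.63% of those of all tested genes.

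Genes of amino acid supply were lower than in the control knockdown and closer to untreated cells. Of 14 tested serine, one-carbon and proline enzymes 2 rose and 11 fell against untreated cells (median -0.33), and 1 rose and 12 fell against the control knockdown (median -1.11). SHMT2, which makes one-carbon units from serine in mitochondria, stood at 112, 120.4 and 115 TPM in the ARID2 knockdown, 291, 325 and 339 TPM in the control knockdown and 206, 198 and 208 TPM in untreated cells. PSAT1, of serine synthesis, was near the untreated level, at 104, 101 and 100.03 TPM in the ARID2 knockdown, 337, 364 and 375 TPM in the control knockdown and 90.1, 90.5 and 87.3 TPM in untreated cells. For SHMT2 the ARID2 libraries were the lowest of the groups, and for PSAT1 they lay just above untreated cells (0.19 ± 0.06). ALDH18A1, of proline synthesis, fell against both baselines (-1.04 ± 0.05 and -0.67 ± 0.05).

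Amino acid transporters showed the same split by baseline. Of 14 tested transporters 5 rose and 7 fell against untreated cells (median -0.22), and 2 rose and 10 fell against the control knockdown (median -0.96). SLC38A1, the glutamine carrier whose gene lies near ARID2, stood at 53.5, 54.9 and 56.3 TPM in the ARID2 knockdown, 183, 196 and 201 TPM in the control knockdown and 122, 122 and 124 TPM in untreated cells (-1.15 ± 0.06 and -1.80 ± 0.06). SLC7A5, the leucine carrier, fell against both baselines (-0.99 ± 0.05 and -1.78 ± 0.05), whereas SLC7A11, the cystine carrier, was higher than in untreated cells and lower than in the control knockdown (1.02 ± 0.09 and -1.63 ± 0.09). Of 20 tested aminoacyl-tRNA synthetases 2 rose and 11 fell against untreated cells, and 2 rose and 14 fell against the control knockdown, with medians of -0.16 and -0.51. YARS fell against both (-0.67 ± 0.04 and -1.24 ± 0.04), and SARS was higher than in untreated cells but lower than in the control knockdown (0.47 ± 0.06 and -0.47 ± 0.06).

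**Figure D4:**
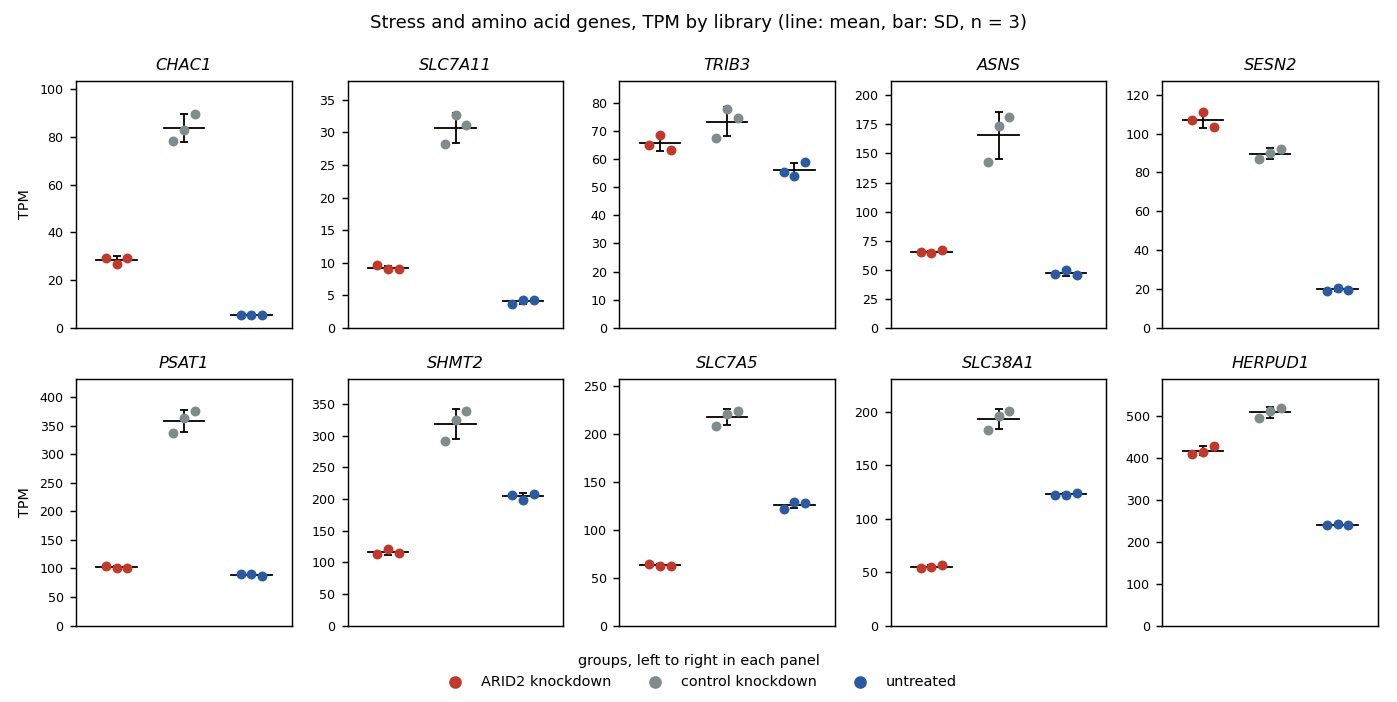
TPM of stress and amino acid genes in each library (points), with the group mean (line) and SD (bar), n = 3 per group; ARID2 knockdown, control knockdown and untreated cells run left to right on linear axes that start at 0. The control knockdown is the highest group in every panel but that of SESN2, and SHMT2, SLC7A5 and SLC38A1 are lowest in the ARID2 knockdown.

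Most secretory pathway genes fell against both baselines, while XBP1 rose. Of 35 tested ER and unfolded protein response genes 9 rose and 22 fell against untreated cells (median -0.20), and 2 rose and 30 fell against the control knockdown (median -0.46); the control knockdown over untreated cells gave 30 higher and 2 lower. SSR1, a subunit of the translocon-associated complex, had the largest fall, at 15.0, 15.1 and 15.5 TPM in the ARID2 knockdown, 104, 108 and 108 TPM in the control knockdown and 84.2, 86.3 and 84.2 TPM in untreated cells. PDIA4, a disulfide isomerase, fell against both baselines (-1.01 ± 0.03 and -1.22 ± 0.03). XBP1, the plasma cell factor that induces the ER, rose against both, at 1655, 1683 and 1748 TPM in the ARID2 knockdown, 1292, 1292 and 1256 TPM in the control knockdown and 1089.7, 1097 and 1072 TPM in untreated cells. HERPUD1, of ER-associated degradation, was higher than in untreated cells and lower than in the control knockdown (0.79 ± 0.03 and -0.28 ± 0.03). Of 20 tested cytosolic chaperones 2 rose and 14 fell against untreated cells (median -0.53), but 7 rose and 7 fell against the control knockdown (median 0.02). HSPH1, for example, was lower than in untreated cells (-0.93 ± 0.05) and close to the control knockdown (-0.10 ± 0.05). Of 34 tested proteasome genes 3 rose and 20 fell against untreated cells, with a median of -0.17. Against the control knockdown 12 proteasome genes rose and 9 fell (median -0.01). Both the chaperone and the proteasome counts against the control knockdown were near the shares of all tested genes (33.1% higher and 29.2% lower). For the proteasome list the control knockdown over untreated cells gave 0 higher and 24 lower (limma, 0 higher at an unadjusted p under 0.05). PSMB5, the catalytic subunit that bortezomib blocks, rose (0.63 ± 0.04 and 0.77 ± 0.04).

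Most transcription factors of plasma cells rose, while MYC, KLF2, KLF13 and IKZF1 fell. Of 14 tested plasma cell transcription factors 9 rose and 4 fell against untreated cells, with a median of 0.28, and against the control knockdown 9 rose and 4 fell (median 0.18). IRF4 stood at 452, 446 and 461 TPM in the ARID2 knockdown, 619, 636 and 639 TPM in the control knockdown and 471, 459 and 476 TPM in untreated cells. Its difference from untreated cells did not pass (-0.05 ± 0.04, adjusted p = 0.224) and turned to 0.11 with quantile scaling (adjusted p = 0.0191), but it fell against the control knockdown (-0.48 ± 0.04, adjusted p = 4.41e-10). MAF, the oncogene that a translocation activates in this line, stood at 734, 715 and 790.2 TPM in the ARID2 knockdown, 526, 497 and 501 TPM in the control knockdown and 447, 459 and 453 TPM in untreated cells (0.72 ± 0.03). PRDM1, the master regulator of plasma cells, rose against both baselines (0.63 ± 0.04 and 0.46 ± 0.04), and KLF13 fell against both (-0.76 ± 0.03 and -0.31 ± 0.03). Among 11 tested MAF-driven genes 6 rose and 3 fell against untreated cells, and 7 rose and 2 fell against the control knockdown; CCND2, the cyclin that MAF induces, rose (0.78 ± 0.04 and 0.68 ± 0.04), and the chemokine receptor CX3CR1 was lower than in untreated cells (-1.55 ± 0.06) but did not pass against the control knockdown (-0.12 ± 0.06).

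IKZF3 (Aiolos) rose, at 118, 119 and 122 TPM in the ARID2 knockdown, 83.5, 79.2 and 81.4 TPM in the control knockdown and 98.0, 96.7 and 94.5 TPM in untreated cells (0.31 ± 0.05 and 0.55 ± 0.05). IKZF1 (Ikaros) was slightly lower than in untreated cells (-0.13 ± 0.04, adjusted p = 0.0128) and slightly higher than in the control knockdown (0.14 ± 0.04). The IKZF1 call against untreated cells was lost with quantile scaling, with mitochondrial transcripts and IGLL5 left out, and in 2 of the 6 fits that left out 1 library. CRBN, the receptor of pomalidomide, was lower than in untreated cells (-0.25 ± 0.07) and did not pass against the control knockdown (-0.06 ± 0.07). Of 14 tested ligase and neosubstrate genes 2 rose and 7 fell against untreated cells (32.0% and 36.0% of all tested genes did so), with a median of -0.07. Against the control knockdown 5 rose and 4 fell (median 0.01), near the shares of all tested genes (33.1% and 29.2%). The control knockdown over untreated cells gave 1 higher and 10 lower (17.3% and 28.4% of all tested genes did so). GSPT1, a translation termination factor, fell against both (-0.74 ± 0.03 and -0.38 ± 0.03). Of 10 tested factors of earlier B cell stages 4 rose and 3 fell against untreated cells, near the shares of all tested genes (32.0% and 36.0%). Against the control knockdown 5 rose and 3 fell (33.1% and 29.2% of all tested genes did so). The list's median against untreated cells, 0.04, turned below 0 with no filter, with a filter of 5 TPM and with quantile scaling. BCL6, the germinal centre repressor, was higher against both baselines (0.98 ± 0.13 and 0.87 ± 0.13), and ID3 was lower against both (-1.60 ± 0.12 and -0.33 ± 0.12).

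Surface genes passed in either direction about as often as all tested genes. Of 20 tested myeloma surface genes 7 rose and 8 fell against untreated cells (32.0% and 36.0% of all tested genes did so), with a median of -0.05 that turned to 0.07 with quantile scaling, and against the control knockdown 9 rose and 7 fell (median -0.02). SDC1 (CD138), the plasma cell marker, did not pass (-0.02 ± 0.04), nor did SLAMF7 (-0.03 ± 0.03) or CD38 (0.14 ± 0.08). TNFRSF17 (BCMA) fell against both baselines (-0.35 ± 0.03 and -0.53 ± 0.03), as did GPRC5D (-0.62 ± 0.06 and -1.24 ± 0.06). The costimulatory receptor CD28 and the adhesion gene LY9 rose against both (0.86 ± 0.04 and 0.86 ± 0.04 against untreated; 0.49 ± 0.04 and 0.53 ± 0.04 against control). ICAM1, a ligand of leukocyte integrins, was well above untreated cells (1.27 ± 0.06) and nearer the control knockdown (0.29 ± 0.06).

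Some of the genes named for the size of their rise encode surface ligands, chemokines or a deaminase. TNFSF9, the ligand of the T cell costimulatory receptor TNFRSF9, stood at 182, 194 and 205 TPM in the ARID2 knockdown, 39.1, 35.9 and 34.9 TPM in the control knockdown and 18.0, 26.5 and 23.3 TPM in untreated cells (3.06 ± 0.10). CD80, a ligand of CD28, stood at 7.96, 7.82 and 7.85 TPM in the ARID2 knockdown, against 0.35 TPM on average in the control knockdown and 0.286, 0 and 0 TPM in untreated cells. CCL3, a chemokine of myeloma cells, stood at 8226, 8066 and 7561 TPM in the ARID2 knockdown, 4498, 5126 and 5257 TPM in the control knockdown and 916, 934 and 880.4 TPM in untreated cells, so that most of the difference from untreated cells was also present in the control knockdown (0.68 ± 0.05 against control). CCL3L3 is a near copy of CCL3, and the values of both genes are uncertain for that reason. APOBEC3H, a cytidine deaminase that restricts retroviruses, averaged 81.0 ± 4.58 TPM in the ARID2 knockdown, 19.6 ± 1.74 TPM in the control knockdown and 7.02 ± 1.98 TPM in untreated cells (SD, n = 3 each).

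Genes of antigen presentation that passed were mostly higher against both baselines. Of 28 tested genes 15 rose and 4 fell against untreated cells (median 0.15), and 20 rose and 5 fell against the control knockdown (median 0.46). Class II genes were among the rises. HLA-DRA stood at 843, 868 and 815 TPM in the ARID2 knockdown, 362, 366 and 372 TPM in the control knockdown and 460.5, 439 and 443 TPM in untreated cells, and HLA-DPB1 (0.94 ± 0.06), HLA-DMA (1.07 ± 0.08) and CD74 (0.52 ± 0.04) rose too. CIITA, the activator of class II genes, fell against untreated cells (-0.69 ± 0.07). Among class I genes HLA-B fell (-0.47 ± 0.03), B2M did not pass, and the peptide transporter TAP1 rose (0.69 ± 0.04) while TAP2 fell (-0.71 ± 0.08). HLA genes share sequence, and how reads were divided among them is not given in the sources used here.

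Most NF-kB and interferon genes that passed against untreated cells were higher. Of 23 tested NF-kB genes 15 rose and 2 fell against untreated cells (median 0.27), and 17 rose and 1 fell against the control knockdown (median 0.35). TRAF1, an adaptor and NF-kB target, rose against both (1.42 ± 0.09 and 1.44 ± 0.09), as did the subunit gene NFKB2 (0.73 ± 0.05 and 0.59 ± 0.05). Of 42 tested interferon-stimulated genes 28 rose and 4 fell against untreated cells (median 0.36), and 19 rose and 6 fell against the control knockdown (median 0.21). OAS3, a sensor of double-stranded RNA, was higher than in untreated cells (1.39 ± 0.09) and close to the control knockdown (0.11 ± 0.09), whereas IRF9, a DNA-binding subunit of the interferon-activated factor ISGF3, rose against both (0.86 ± 0.06 and 0.52 ± 0.06). UBE2L6, the enzyme that conjugates ISG15, fell against both (-0.88 ± 0.05 and -1.16 ± 0.05). The interferon element GAAANNGAA was present in 24 of 34 promoters of the list (70.6%), against 9.17% of those of all tested genes.

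Replication histone transcripts were higher while S phase genes were lower. Of 14 tested histone genes 13 rose and 0 fell against untreated cells (median 1.40; the other did not pass), and 11 rose and 0 fell against the control knockdown (median 0.98). HIST1H2BD stood at 18.2, 12.9 and 11.9 TPM in the ARID2 knockdown, 3.45, 3.85 and 5.11 TPM in the control knockdown and 1.40, 0.71 and 1.85 TPM in untreated cells. Histone genes have near-identical copies and mostly make transcripts with no poly(A) tail, so these values depend on read assignment and on how RNA was selected, which is not given in the sources used here.

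Mitochondrial transcripts took a larger share of all listed TPM, 18.5% ± 0.240 in the ARID2 knockdown, 17.2% ± 0.373 in the control knockdown and 15.5% ± 0.130 in untreated cells (SD, n = 3 each). Of 13 mitochondrial mRNAs 11 rose and 0 fell against untreated cells (median 0.29, and 0 with quantile scaling, which gives all libraries the same top values), and against the control knockdown 8 rose and 2 fell (median 0.13). MT-CYB, of respiratory complex III, had a log2 fold change of 0.64 ± 0.03. With mitochondrial genes and IGLL5 left out of the total, 4470 genes were higher and 4083 lower. Of 59 nuclear genes of oxidative phosphorylation 20 rose and 18 fell against untreated cells (median 0.02), 34 rose and 8 fell against the control knockdown (median 0.16), and 56 rose and 1 fell against the Aiolos-labelled libraries (median 0.45). Against untreated cells these counts were near the shares of all tested genes (32.0% higher and 36.0% lower). How far the list leaned upward thus depended on the baseline, and its median under the Aiolos label over untreated cells was -0.41. SDHA, of complex II, had the smallest p among those that fell against untreated cells (-0.80 ± 0.03 and -0.54 ± 0.03). Of 78 ribosomal protein genes 46 rose and 13 fell against untreated cells (median 0.10), and against the control knockdown 20 rose and 27 fell (median -0.02).

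More actin and adhesion genes fell than rose. Of 40 tested actin and adhesion genes 9 rose and 24 fell against untreated cells (median -0.27), and against the control knockdown 6 rose and 22 fell (median -0.14). VCL, vinculin of focal adhesions, fell against both baselines (-1.84 ± 0.08 and -1.62 ± 0.08), as did CORO1A, an actin regulator of leukocytes (-1.13 ± 0.05 and -1.15 ± 0.05). Of 34 lysosome genes 21 rose and 6 fell against untreated cells (median 0.20). Against the control knockdown 13 rose and 9 fell (median 0.07), near the shares of all tested genes (33.1% and 29.2%). The control knockdown over untreated cells gave 18 higher and 5 lower lysosome genes with the same median (0.20). TPP1, a peptidase, rose against untreated cells (0.62 ± 0.03) and against the control knockdown (0.14 ± 0.03). Of 23 NRF2 genes 9 rose and 10 fell against untreated cells (32.0% and 36.0% of all tested genes did so). Against the control knockdown 8 rose and 8 fell, near the shares of all tested genes (33.1% and 29.2%). The direction of the NRF2 list's median against untreated cells, -0.0051, depended on the scaling. HMOX1, heme oxygenase, was the largest rise of that list, at 94.4, 88.6 and 84.6 TPM in the ARID2 knockdown, 19.4, 19.3 and 20.3 TPM in the control knockdown and 23.7, 22.0 and 24.1 TPM in untreated cells. Of 18 immediate early genes 6 rose and 7 fell against untreated cells, shares near those of all tested genes, and against the control knockdown 7 rose and 2 fell (median 0.13). IER5 rose against both baselines (1.43 ± 0.05 and 1.31 ± 0.05).

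**Figure D5:**
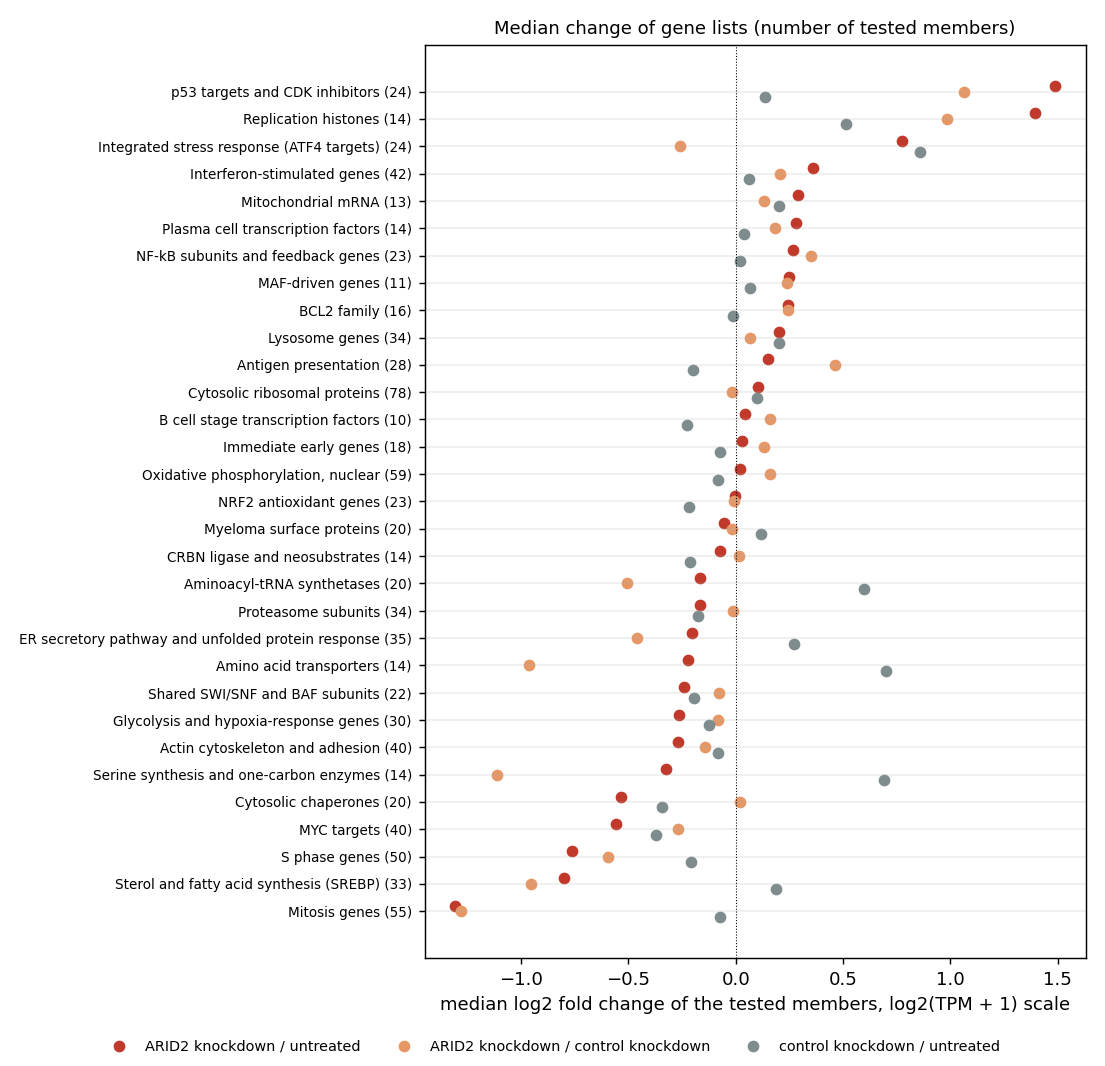
Median log2 fold change (log2(TPM + 1) scale) of the tested members of 31 gene lists, with the number of members in brackets; each dot is the median of a list in ARID2 knockdown over untreated, ARID2 knockdown over control knockdown, or control knockdown over untreated. p53 targets lie at the top, at 1.49 and 1.06 in the ARID2 comparisons, and mitosis genes at the bottom, at -1.31 and -1.28, while serine, transporter and tRNA synthetase lists lie far apart between the baselines.

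Outside the lists, the largest rise was that of LCE1E, a cornified envelope gene of skin in which near copies make read assignment uncertain, at 53.9, 48.2 and 42.9 TPM in the ARID2 knockdown, 1.80 TPM on average in the control knockdown and 0, 0.476 and 1.49 TPM in untreated cells. Its neighbour in the family, LCE1B, read 9.32, 9.16 and 5.87 TPM in the ARID2 knockdown, 0.123 TPM on average in the control knockdown and 0.181 TPM on average in untreated cells. CLDN14, a tight junction claudin, averaged 15.1 ± 1.17 TPM in the ARID2 knockdown, 0.903 ± 0.19 TPM in the control knockdown and 0.846 ± 0.516 TPM in untreated cells (SD, n = 3 each). DRAM1, a p53-induced lysosomal membrane protein of autophagy that was not on the p53 list, averaged 33.4 ± 0.999 TPM in the ARID2 knockdown, 4.52 ± 0.311 TPM in the control knockdown and 3.53 ± 0.399 TPM in untreated cells. All but DRAM1 averaged under 2 TPM in both baselines.

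The largest falls outside the lists were found against both baselines as well. PTMA, the abundant nuclear acidic protein prothymosin alpha, stood at 304, 310.4 and 315 TPM in the ARID2 knockdown, 1180.5, 1160.1 and 1119 TPM in the control knockdown and 1745, 1742 and 1729 TPM in untreated cells (-2.48 ± 0.03). CREG1, a secreted lysosomal glycoprotein, stood at 44.7, 40.7 and 46.7 TPM in the ARID2 knockdown, 314, 315 and 316 TPM in the control knockdown and 248, 249.95 and 248 TPM in untreated cells (-2.47 ± 0.03). For these genes no ARID2 library came near a baseline library. EMP2, an epithelial membrane protein, averaged 3.28 ± 0.257 TPM in the ARID2 knockdown, 18.7 ± 0.587 TPM in the control knockdown and 24.9 ± 0.828 TPM in untreated cells (SD, n = 3 each). EPB41, the membrane skeleton protein 4.1, fell against untreated cells with a log2 fold change of -2.23 ± 0.04, and the falls of TMEM109 (-2.22 ± 0.04), of the potassium channel subunit KCNS3 (-2.30 ± 0.07) and of FAM213B (-2.51 ± 0.10) were alike in size. SULT1A4, a sulfotransferase, also met the rule (-2.60 ± 0.21), but it has a near-identical copy and its value is uncertain. Some of these genes were also lower than in untreated cells under the Aiolos label: SULT1A4 (-2.17), KCNS3 (-1.67), FAM213B (-1.67), PTMA (-1.32) and TMEM109 (-0.65). There CREG1 was higher (0.92), and EMP2 (0.09) and EPB41 (0.02) did not pass.

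A few genes passed in opposite directions against the baselines. Besides CHAC1 and SLC7A11, INHBE, an inhibin subunit induced by stress, averaged 1.81 ± 0.444 TPM in the ARID2 knockdown, 7.94 ± 0.849 TPM in the control knockdown and 0.384 ± 0.271 TPM in untreated cells (SD, n = 3 each), and ASS1, of arginine synthesis, averaged 9.49 ± 1.44 TPM in the ARID2 knockdown, 19.7 ± 4.71 TPM in the control knockdown and 3.10 ± 0.145 TPM in untreated cells. In the reverse direction TLE1, a corepressor, was lower than in untreated cells (-0.44 ± 0.12) and higher than in the control knockdown (0.68 ± 0.12), as were the chaperone HSPA1B (-0.54 ± 0.07 and 0.38 ± 0.07), whose copy HSPA1A makes its value uncertain, the kinesin KIFC3 (-0.50 ± 0.06 and 0.37 ± 0.06) and SYNM, an intermediate filament protein (-0.35 ± 0.05 and 0.41 ± 0.05). For such genes the choice of baseline sets the direction.

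The libraries labelled Aiolos knockdown, which share the virus and the 72 h, give a further reference for the leading changes. Their IKZF3 transcript averaged 129.9 TPM, against 81.3 TPM in the control knockdown and 96.4 TPM in untreated cells. It was higher than in untreated cells (0.42 ± 0.05, adjusted p = 1.30e-07), so at the transcript level it went against the label. Against the Aiolos-labelled libraries 3798 genes (30.2%) were higher and 4484 (35.7%) lower in the ARID2 knockdown. Of the p53 list 17 rose and 5 fell (median 0.73), and CDKN1A averaged 585 ± 11.2 TPM in the ARID2 knockdown and 91.4 ± 5.44 TPM under the Aiolos label. Over untreated cells the p53 list had a median of 1.49 in the ARID2 knockdown and 0.99 under the Aiolos label. PHLDA3 averaged 155 ± 3.13 TPM in the ARID2 knockdown, 38.6 ± 4.05 TPM under the Aiolos label and 5.49 ± 0.648 TPM in untreated cells. GADD45A averaged 221 ± 1.96 TPM in the ARID2 knockdown, 132 ± 4.99 TPM under the Aiolos label and 62.4 ± 1.88 TPM in untreated cells. BAX did not pass between the ARID2 knockdown and the Aiolos-labelled libraries (0.02 ± 0.07, adjusted p = 0.793). Of the mitosis list 1 rose and 52 fell (median -0.78), whereas of the S phase list 36 rose and 6 fell (median 0.45). The S phase direction was thus the opposite of that against untreated cells, MCM6 averaging 126 ± 2.42 TPM in the ARID2 knockdown and 69.1 ± 1.93 TPM under the Aiolos label (SD, n = 3 each).

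Pomalidomide for 72 h is set beside the ARID2 knockdown without a test, and both contrasts over untreated cells share the untreated libraries. The p53 list had a median of 1.49 in ARID2 knockdown over untreated cells and 0.03 in pomalidomide over untreated cells, and the mitosis list a median of -1.31 in ARID2 knockdown over untreated cells and -3.19 in pomalidomide over untreated cells. PHLDA3 averaged 155 ± 3.13 TPM in the ARID2 knockdown, 5.22 ± 0.539 TPM with pomalidomide and 5.49 ± 0.648 TPM in untreated cells. CDKN1A averaged 585 ± 11.2 TPM in the ARID2 knockdown, 55.3 ± 0.741 TPM with pomalidomide and 23.1 ± 2.10 TPM in untreated cells, and its pomalidomide difference from untreated cells passed (1.23 ± 0.06, adjusted p = 2.63e-13). So did those of BBC3 (1.63 ± 0.08), XPC (0.88 ± 0.04) and DRAM1 (1.54 ± 0.10), the last of which was not on the list. FDXR was lower with the drug than in untreated cells (-0.51 ± 0.10), and PHLDA3 did not pass (-0.06 ± 0.09). Single p53 targets thus went in either direction with the drug, and the list's median was near 0. IRF4 averaged 453 ± 7.09 TPM in the ARID2 knockdown, 229 ± 3.75 TPM with pomalidomide and 469 ± 8.66 TPM in untreated cells. ARID2 averaged 12.2 ± 0.191 TPM in its knockdown, 29.5 ± 1.23 TPM with pomalidomide and 29.8 ± 2.30 TPM in untreated cells (SD, n = 3 each).

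Markers of other cell types were measured in the 6 libraries. The T cell gene CD3D was listed at 0 in each, and the B cell gene MS4A1 reached at most 0.0473 TPM. CD3E, another T cell gene, stood at 0.339, 0.294 and 0.162 TPM in the ARID2 knockdown and 1.07, 1.85 and 1.13 TPM in untreated cells (-0.88 ± 0.20), and was the 1 of 3 tested T and NK cell markers that passed. Summed over its list, the myeloid level ran from 15.4 to 16.7 TPM in the ARID2 knockdown and from 5.18 to 8.76 TPM in untreated cells, with 2 of 5 tested members higher and 1 lower. The higher ones were the lysosomal protein CD68 (1.33 ± 0.11) and the integrin ITGAM (1.48 ± 0.13), and the monocyte receptor CD14 was lower (-0.43 ± 0.17), a call that was lost in 4 of the 6 fits that left out 1 of these libraries. B cell markers summed to between 86.1 and 92.7 TPM in the ARID2 knockdown and between 113 and 115 TPM in untreated cells, with 3 of 5 higher and 1, CD79B, lower (-1.04 ± 0.07). Erythroid markers summed to between 26.8 and 28.9 TPM in the ARID2 knockdown and between 11.8 and 17.3 TPM in untreated cells, nearly all of it the globin gene HBB. T and NK cell markers summed to at most 3.43 TPM in the ARID2 knockdown and 4.37 TPM in untreated cells, and epithelial and stromal markers to at most 5.66 TPM in the ARID2 knockdown and 7.27 TPM in untreated cells. The plasma cell marker SDC1 stood at 675, 683 and 676 TPM in the ARID2 knockdown and 677, 685 and 694 TPM in untreated cells. The part of other cells in the results was not tested.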

How the data were processed

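TPM values for 17691 gene symbols in 21 libraries of MM.1S cells (7 groups of 3) were deposited by the authors in 1 table, and the submitters' processing notes name the build hg38. No source used here gives the RNA selection, aligner, quantifier or annotation. Per the labels' protocols, total RNA was column-purified and made into libraries with an Illumina TruSeq RNA kit. TPM removes depth, so no counting error or count model could be used, and columns were mapped to samples by their titles.

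Genes at 1 TPM or more in at least 3 of the 21 libraries were kept (12559), and log2(TPM + 1) was fitted with limma 3.58.1 in R 4.3.3 (7 group means over all 21 libraries, moderated variances with a mean trend, no covariate). Contrasts were ARID2 knockdown minus untreated, ARID2 knockdown minus control knockdown, control knockdown minus untreated, and ARID2 knockdown minus the libraries labelled Aiolos knockdown. All adjusted p-values are Benjamini-Hochberg values from limma over all tested genes, with a threshold of 0.05. The fit was tested on simulated data. No 2 of the 6 libraries shared more than 0.876% of identical values.

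The 37 gene lists (963 symbols, of which 874 were tested, 74 were under the filter and 15 were not matched in the table) and the members were chosen with earlier results of these data known. Genes named were a set of PBAF subunits and regulators, the 12 largest rises and falls that did not overlap and reached 5 TPM, the 6 largest in each direction against both baselines, the 4 largest with opposite directions, and up to 4 members a list by smallest p. Other list members, such as FAS, DDB2, MDM2, ATF4 and PSAT1, were named after their values were seen. Coordinates come from GENCODE 29, in which 17445 symbols matched 1 gene, and promoters from RefSeq on GRCh38.p14.

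Same-numbered ARID2 knockdown and untreated libraries did not deviate together (correlations of 0.0417, -0.0115 and -0.0383), so the samples were not paired. Alternatives changed the pseudocount (0.1), the filter (none, 5 TPM), the scaling, the samples in the fit, the variance trend and the replicate block, or left out 1 library. The choice of a fit without the control and Aiolos-labelled libraries was made after seeing the data.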

Additional observations from a re-analysis of the deposited data

How the results depend on the processing

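The counts of passing genes stayed within 1.5 times of the reported ones under every alternative tried. Leaving out 1 library gave 8019 to 8478 genes for ARID2 knockdown against untreated cells, 7237 to 7799 against the control knockdown, 5059 to 5705 for control knockdown against untreated cells and 5573 to 5853 passing the same way against both baselines. With the replicate number as a block, the counts were 8501, 7755, 5661 and 5986; the numbers do not pair the libraries. The fit without the control and Aiolos-labelled libraries, added after seeing the data, gave 8526 genes for ARID2 knockdown against untreated cells. Quantile scaling gave 4345 higher and 4155 lower genes in that contrast.

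Of 3228 refitted changes of named genes, 3199 kept direction and call, 22 lost the call (COL1A1, CD14, VPREB3 and IKZF1) and 7 turned direction. The last were BRD7 (0.051 with quantile scaling, 0.034 without mitochondrial mRNAs and IGLL5, and -0.045 to 0.0093 when 1 library was left out, 0.0013 in another such fit), IRF4 (0.11 and 0.00034 with the same scalings) and RPS27 (-0.056 with quantile scaling). Of the refitted list medians 622 moved by less than 1 SD of the list's median among the ARID2 knockdown libraries, 100 moved by more and kept their direction, and 17 turned to the other sign or to 0. For B cell stage factors the median was -0.013 with no filter and with 5 TPM and -0.021 with quantile scaling. For immediate early genes it was -0.0059 with no filter, -0.12 with 5 TPM and -0.024 to 0.062 with 1 library left out. For NRF2 genes it was 0.13 with quantile scaling, 0.045 without mitochondrial mRNAs and -0.020 to 0.018 with 1 library left out (0.0056 in another such fit), and for surface genes 0.067 with quantile scaling. Some of these were not near 0 as reported: mitochondrial mRNAs (0.29) had a median of 0 with quantile scaling, erythroid markers (0.52) 0 with no filter and B cell markers (0.31) -0.36 with 5 TPM. T cell markers had 0 with no filter, myeloid markers 1.33 with 5 TPM, and myeloid markers -0.057 to 0.016 with 1 library left out. The causes were not tested. Depth is unknown, and a single line, a single time and a control whose hairpin and time are not stated limit what the contrasts show.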
